A study of Homo sapiens with 6 samples.

Results

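The transglutaminase family was examined in SiHa cells, a human cervical cancer line, after interference with CNN3, which codes for the actin-binding protein calponin 3. The 5 members were TGM1, TGM2, TGM3, TGM5 and F13A1, matched by gene identifier among 48162 counted genes. They were picked because TGM2 is abundant in these cells and its count falls with the knockdown. Its level and its difference between the groups are therefore given here as descriptions, with no p-value and nothing read from its call. RNA-seq was run on 2 groups of 3 samples: cells transfected with the duplex si-CNN3#1, and cells transfected with the control duplex si-NC. Both groups were kept in the same medium and received an siRNA, and RNA was taken 48 h after transfection. An untransfected group and a second CNN3 duplex were not analysed here, and all values come from 1 cell line and 1 duplex.

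Transglutaminases join the side chain of a glutamine in one protein to a lysine in another, in a reaction that needs calcium and runs through a cysteine in the active site. TGM2, tissue transglutaminase, is the broadly expressed member. It also binds GTP and can act as a G protein, and at the cell surface it binds fibronectin and integrins. TGM1, TGM3 and TGM5 are the enzymes of skin and other stratified epithelia, where they seal the cornified envelope, and F13A1 is the catalytic subunit of clotting factor XIII.

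The stretch around the catalytic cysteine is printed to show what the 5 members share and where a relative differs. Each line holds 30 coding bases, 5′ to 3′ on the gene's strand, from GENCODE 29 transcripts on GRCh38, and the capitals mark the codon aligned with the catalytic cysteine of TGM2.
TGM2: gtcaagtatggccagTGCtgggtcttcgcc
TGM1: gtcccctatggccagTGCtgggtctttgct
TGM3: gtccgatatggccagTGCtgggtctttgct
TGM5: gtgcgctacgggcaaTGCtgggtctttgct
F13A1: gtccggtatggccaaTGCtgggtttttgct
EPB42: gtgtatgatggccagGCCtgggtgttggct

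In TGM2 (ENSG00000198959) this window is chr20:38146733-38146762 on the minus strand, in exon 6 of 13, and the cysteine is residue 277 of 687. The other windows are chr14:24259091-24259120 (minus strand) in TGM1, chr20:2317200-2317229 (plus strand) in TGM3, chr15:43252775-43252804 (minus strand) in TGM5, chr6:6224702-6224731 (minus strand) in F13A1 and chr15:43209290-43209319 (minus strand) in EPB42. Against TGM2, 25 of the 30 bases were the same in TGM1 and in TGM3, 24 in F13A1 and 21 in TGM5. Among the relatives outside the 5 members, 29 were the same in TGM6, 27 in TGM7, 22 in TGM4 and 21 in EPB42. The codon was that of cysteine in all 5 members and also in TGM4, TGM6 and TGM7. EPB42, the red cell membrane protein band 4.2, belongs to the family by sequence but carries a codon for alanine there.

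Total counts on genes ran from 18147028 to 19026341 in the si-CNN3#1 samples and from 20287139 to 24976517 in the si-NC samples. Levels are therefore given as normalized CPM, that is, counts relative to a library size corrected by edgeR's TMM method. CNN3, the targeted gene, was counted 490, 514 and 574 times with si-CNN3#1 against 1134, 1288 and 1234 times in the controls. After normalization this was 28.1 ± 2.95 CPM (SD, n = 3) against 55.2 ± 2.97 CPM, or 50.9% of control, and the groups did not overlap (p = 0.1 in an exact two-sided permutation test, which cannot go lower with 3 samples a group). Of the epithelial markers, KRT8 stood at 608 ± 19.9 CPM with si-NC, KRT17 at 187 ± 7.28 CPM, KRT18 at 147 ± 7.51 CPM and CDH1 at 36.6 ± 0.951 CPM. Others were low: EPCAM was at 6.25 ± 0.537 CPM (106 to 145 counts over all samples) and KRT19 at 5.04 ± 0.237 CPM (85 to 130 counts). KRT5 was at 0.406 ± 0.114 CPM (4 to 11 counts). Leukocyte, megakaryocyte, endothelial and fibroblast markers were at or under 109 counts in every sample, save CD14 with 2190 to 3517 counts and PECAM1, which was not analysed here. CD14, the co-receptor for lipopolysaccharide, fell from 149 ± 6.87 to 121 ± 3.91 CPM (edgeR, adjusted p = 7.88e-10), the 1 call among the 3 leukocyte markers tested. Of the 7 epithelial markers 6 were tested, and KRT8 and KRT18 were called lower and KRT17 higher. Among all tested genes 13.3% were called, and among those with a mean of at least 100 CPM 29.1%. The sum of the 5 leukocyte markers, most of it CD14, was 144 to 156 CPM with si-NC and 120 to 128 CPM with si-CNN3#1. The sum of the 7 epithelial markers was 953 to 1021 CPM against 887 to 961 CPM. The part of these shifts in the level of TGM2 was not tested. The platelet gene PF4 had at most 1 count and the macrophage gene CD163 at most 2.

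TGM2 dominated the family in both groups. It was counted 10276, 12946 and 11094 times in the si-NC samples and 7140, 7595 and 6844 times in the si-CNN3#1 samples. In normalized CPM it stood at 512, 520 and 514 with si-NC against 379, 395 and 375 with si-CNN3#1. Every sample with si-CNN3#1 lay below every control sample, and the gap between the groups was wider than the range within either. The means were 516 ± 4.11 CPM and 383 ± 11 CPM (SD, n = 3 each), so that TGM2 was at 74.3% of its control level. The log2 fold change in the edgeR fit was -0.43 with a standard error of 0.03. In the deposited FPKM, a level per length, the means were 234 ± 2.75 with si-NC and 176 ± 5.69 with si-CNN3#1. In bulk RNA, fewer cells that express a gene and less of its RNA per cell cannot be told apart.

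**Figure D1:**
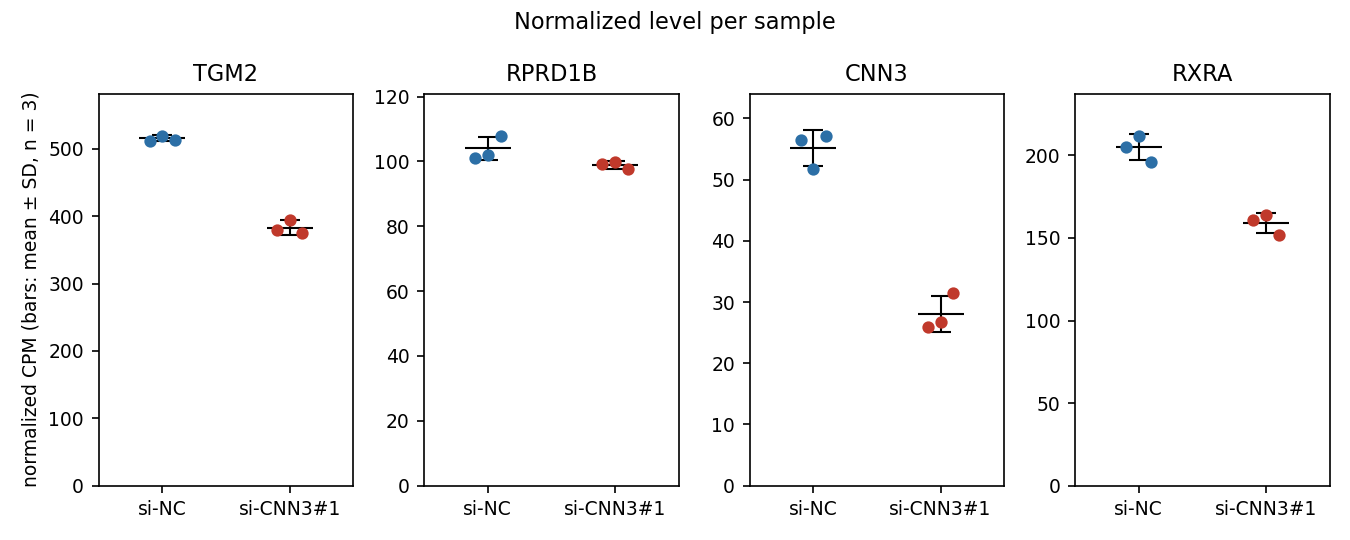
Normalized level, in CPM from 0, of TGM2, its neighbour RPRD1B, the targeted gene CNN3 and the nuclear receptor gene RXRA in each of the 3 si-NC samples (blue) and 3 si-CNN3#1 samples (red). Bars give the mean ± SD; TGM2 was 516 ± 4.11 CPM with si-NC and 383 ± 11 CPM with si-CNN3#1, while RPRD1B was 104 ± 3.47 and 98.9 ± 1.13 CPM.

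By mean normalized CPM, TGM2 ranked 229 among 30502 genes with a count in the si-NC samples and 350 in the si-CNN3#1 samples. By mean FPKM, which accounts for length, it ranked 471 in the si-NC samples. TGM2 was chosen as an abundant gene that falls in this contrast, so its place among genes by log2 fold change is a description only. Of 15860 genes tested, 328 had a log2 fold change at or below that of TGM2, itself included. Among the 2486 tested genes with a mean of at least 100 CPM there were 7, TGM2 included. The others, named after their values were seen, were RPLP1, a ribosomal stalk protein, at -0.67; TFAM, which packages mitochondrial DNA, at -0.48; PGRMC1, a heme-binding membrane protein, at -0.45; PPP3CA, the catalytic subunit of calcineurin, at -0.45; CTSB, the lysosomal protease cathepsin B, at -0.44; and TMEM30A, a partner of lipid flippases, at -0.43. TGM2 was the second most abundant of the 7, at a mean of 449 CPM over the 6 samples, after RPLP1 at 1226 CPM.

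**Figure D2:**
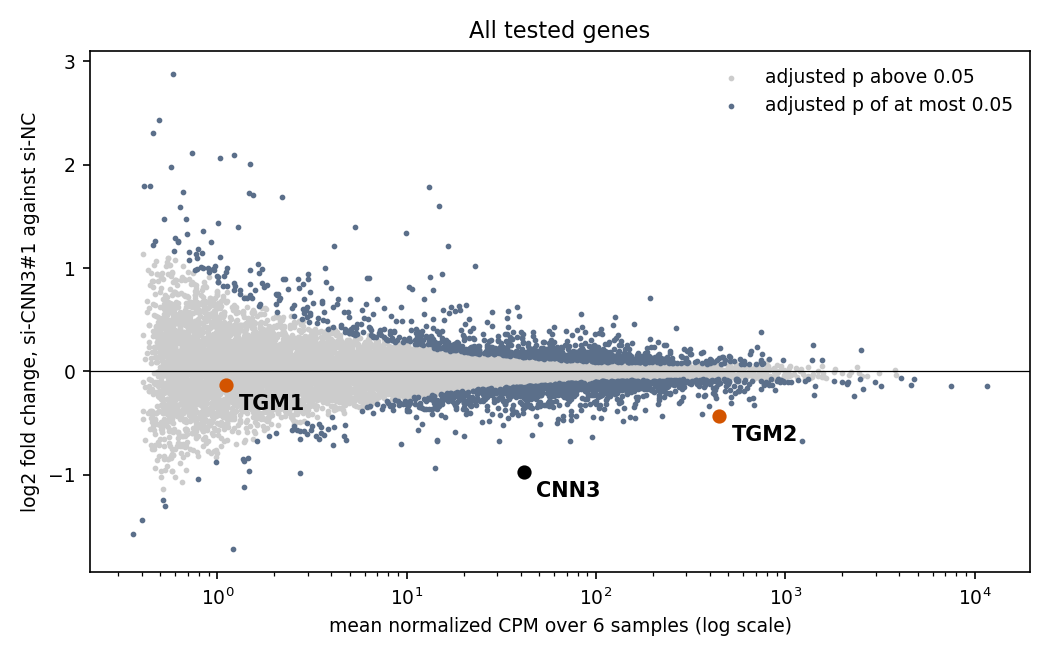
Log2 fold change of si-CNN3#1 against si-NC for each of the 15860 tested genes, against mean normalized CPM over the 6 samples (log scale), with genes at an adjusted p of at most 0.05 in the darker colour. TGM2 lies at -0.43 and 449 CPM, on the lower edge of the genes of its level; TGM1 lies near 1 CPM, where the scatter is wide, and CNN3 at -0.97.

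TGM1 (ENSG00000092295), keratinocyte transglutaminase, was expressed at a trace. It had 20, 37 and 21 counts in the si-NC samples and 24, 14 and 22 in the si-CNN3#1 samples, so that the groups overlapped. The level was 1.15 ± 0.290 CPM with si-NC and 1.07 ± 0.296 CPM with si-CNN3#1. Its log2 fold change was -0.13 with a standard error of 0.28, and the 95% interval reached from -0.68 to 0.41, which holds the value seen for TGM2. A change of TGM1 as large as that of TGM2 was thus not detectable at this depth. The sign rested on single libraries, being 0.08 without si-CNN3#1 replicate 2 and 0.11 without si-NC replicate 2.

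TGM3 (ENSG00000125780; chr20:2296001-2341078, plus strand), epidermal transglutaminase, was close to the limit of counting. It had 3, 3 and 5 counts with si-NC and 7, 4 and 7 with si-CNN3#1, and did not pass the filter on low counts. The skin enzyme TGM5 (ENSG00000104055; chr15:43232595-43266857, minus strand) had 0 counts in all 6 samples, which allows up to 0.0244 CPM over the 6 together. F13A1 (ENSG00000124491; chr6:6144085-6321013, minus strand) had 2 counts in si-NC replicate 2 and 0 in the other 5 samples. In the si-CNN3#1 samples together, 0 counts allow up to 0.0535 CPM of F13A1. These limits cover counting error only. TGM5 was therefore not detected, F13A1 was seen in 1 library, and TGM3 was too scarce for a comparison.

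In all, 2 of the 5 members passed the filter on low counts and 1 of them, TGM2, was called lower at an adjusted p of at most 0.05 in edgeR's quasi-likelihood test. Of all tested genes, 7.14% were called lower, 6.17% higher and 13.3% either way. Without correction for composition, by total counts alone, 1294 genes were called higher and 863 lower, against 978 and 1133 with TMM; TGM2 then stood at -0.41. TGM2 did not overlap between the groups, which held for 28.2% of all tested genes, and TGM1 did. Since TGM2 was chosen on this contrast, nothing is read from these counts.

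The remaining family genes were scarce too. EPB42, which passed the filter on low counts, had 13, 14 and 15 counts with si-NC and 7, 13 and 7 with si-CNN3#1, a log2 fold change of -0.39 (SE 0.38, adjusted p = 0.577 in edgeR). TGM4, the prostate enzyme, had 1, 0 and 0 counts with si-NC and 1, 2 and 2 with si-CNN3#1. TGM6 and TGM7 had at most 1 count in any sample. F13B, the carrier subunit of factor XIII, had at most 2.

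**Figure D3:**
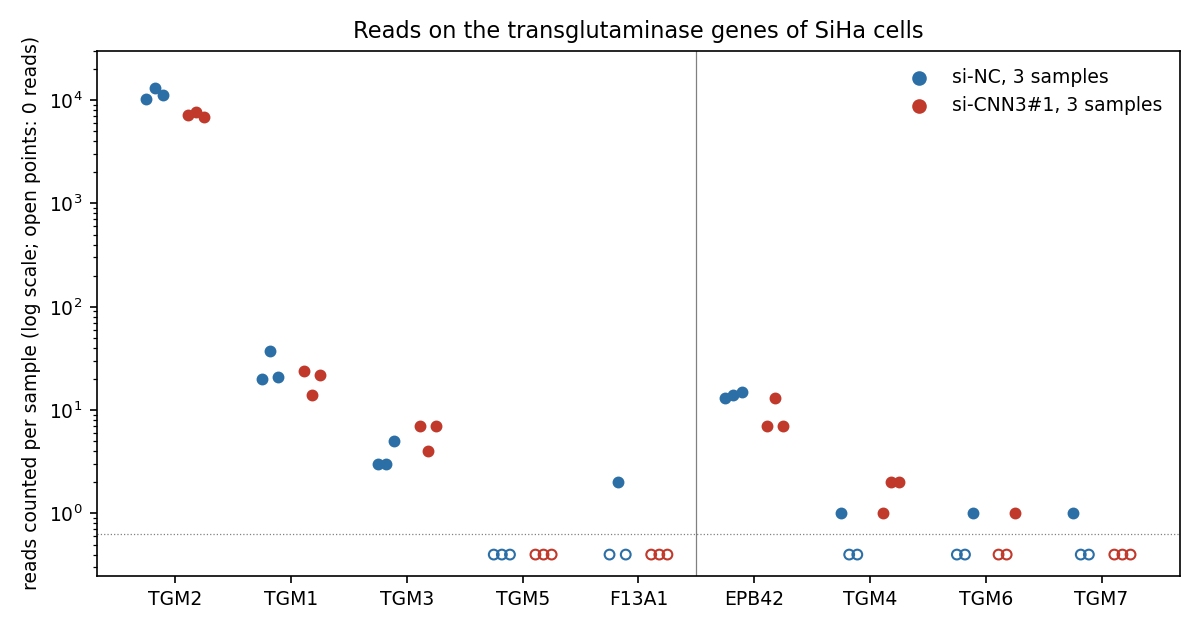
Reads counted per sample on the 5 members (left of the line) and 4 further family genes (right), on a log scale, with si-NC in blue and si-CNN3#1 in red; open points below the dotted line stand for 0 reads. TGM2 lies at 6844 to 12946 reads, TGM1 at 14 to 37, and TGM5 at 0 in all samples.

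Over the 6 samples, the 9 genes of the transglutaminase fold took 56142 reads, of which 55895 were on TGM2. This is 99.56% of the family's reads (95% exact binomial interval 99.50 to 99.61%). The interval covers counting error of the pooled reads only, not the spread between samples. Single samples ranged from 99.43 to 99.63%, beyond it on both sides. Per kilobase of the longest annotated transcript, the level with si-NC was 102 CPM for TGM2, 0.415 for TGM1, 0.257 for EPB42, 0.0633 for TGM3 and 0.0067 for F13A1. The order TGM2, TGM1, TGM3 held in each sample by count. No other member came near the level of TGM2 in either group.

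TGM2 spans chr20:38127387-38166578 on the minus strand of GRCh38. Its last exon shares 394 bases, chr20:38127387-38127780, with the end of RPRD1B, a gene on the plus strand that codes for a protein bound to the tail of RNA polymerase II. This is 4.90% of the annotated exon bases of TGM2, and no exon of the other 4 members is shared with another annotated gene. RPRD1B stood at 101, 102 and 108 CPM with si-NC and 99.2, 99.9 and 97.7 CPM with si-CNN3#1, a log2 fold change of -0.07 (SE 0.03, adjusted p = 0.212 in edgeR). Whether the counting used strand is not given in the sources used here, so reads from the shared bases could belong to either gene.

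The duplexes and the matching letters in TGM2 are shown because an siRNA can also act on transcripts that match only bases 2 to 8 of its guide strand. Capitals mark the letters of the sense strand that pair with those bases, and the same letters in TGM2 transcript 201.
si-CNN3#1 sense strand: gcagaugggaaCCAACAAatt
si-NC sense strand: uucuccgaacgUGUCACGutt
TGM2 coding sequence: gcccacatcaCCAACAAcaccgctgag
TGM2 3′ UTR: tggtcactaaCCAACAAggttggcacc

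The 7 letters CCAACAA occurred once in the coding sequence (chr20:38138235-38138241) and once in the 2832 bases of the 3′ UTR (chr20:38128885-38128891). The si-NC letters, TGTCACG, were not in that UTR. Matches were searched on the transcript strand only. CCAACAA was present in 9.14% of the 3′ UTRs of 12644 tested genes and in 14.3% of the 1051 UTRs of 2500 to 3200 bases, the length class of TGM2. It was present in 10.1% of the UTRs of genes called lower, in 8.70% of those called higher and in 9.08% of those not called. The longest run of TGM2 letters identical to the 19-base core of si-CNN3#1 was 9 bases, and to that of si-NC 7 bases. Of the 6 other abundant genes that fell at least as far as TGM2, TFAM held the letters in its UTR and the other 5 did not. A match is only letters in a window, and the part of this duplex in the level of TGM2 was not tested.

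The 5 genes whose levels ran most like those of TGM2 over the 6 samples were PPP3CA, IGFBP4, a gene known here only as ENSG00000152022, TMEM30A and ABCG1. Likeness was the root mean square difference of log2 CPM after centring each gene on its mean, among 9794 tested genes of at least 10 CPM. It was 0.0169 for PPP3CA, 0.0238 for IGFBP4, 0.0245 for ENSG00000152022, 0.0267 for TMEM30A and 0.0287 for ABCG1, against a median of 0.220. As they were picked for this likeness, their values are a description. IGFBP4, which binds insulin-like growth factors, stood at 416 ± 5.21 CPM with si-NC and 313 ± 2.60 CPM with si-CNN3#1. PPP3CA stood at 122 ± 1.28 and 89.6 ± 3.24 CPM. ABCG1, a sterol exporter, stood at 39.6 ± 0.941 and 28.9 ± 0.834 CPM.

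**Figure D4:**
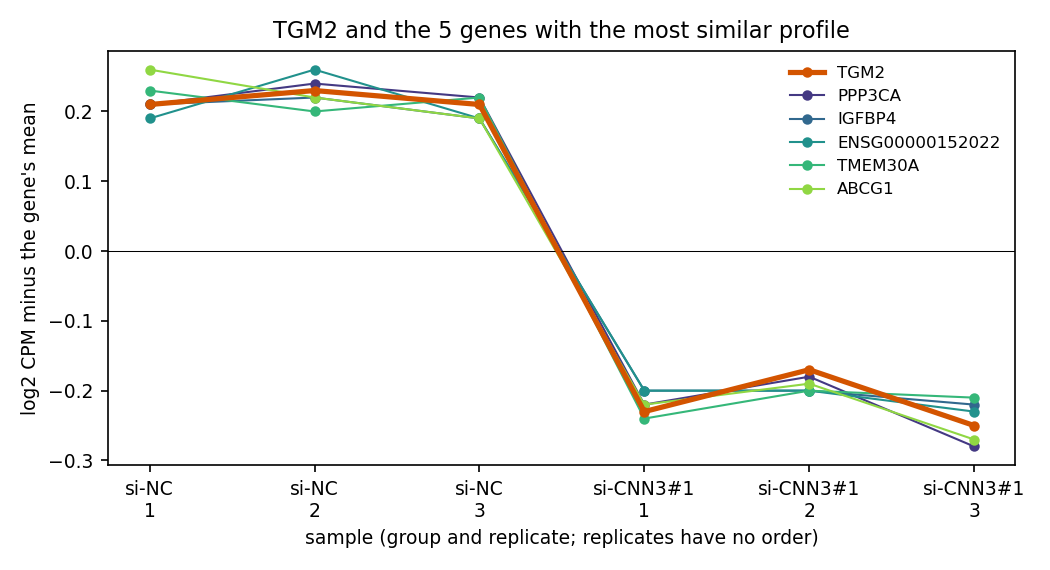
Log2 CPM of TGM2 (thick line) and of the 5 genes with the most similar profile, minus each gene's mean, in the 6 samples; lines only join the points of 1 gene. TGM2 lies at 0.21 to 0.23 in the si-NC samples and at -0.25 to -0.17 in the si-CNN3#1 samples, and the other genes follow it.

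Genes known to induce TGM2, to answer to retinoic acid as TGM2 does, or to bind or be modified by transglutaminases were then read from the same fit. The 6 lists held 95 genes, of which 60 were tested and 18, or 30.0%, were called (7 higher and 11 lower). Among all tested genes 13.3% were called, and among those with a mean of at least 100 CPM 29.1%. DESeq2 called 9 genes of these lists.

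The list of inducers had 17 genes, of which 16 were tested, 2 called higher and 5 called lower. The median of their log2 fold changes was -0.01 against 0.002 for all tested genes. RXRA, the retinoid X receptor alpha that partners the retinoic acid receptors, stood at 205, 212 and 196 CPM with si-NC and 161, 164 and 152 CPM with si-CNN3#1. The groups did not overlap, and the fall was by 0.37 on the log2 scale (SE 0.03, edgeR, adjusted p = 9.32e-14). The retinoic acid receptor gene RARG fell from 64.9 ± 2.40 to 58.5 ± 0.772 CPM (adjusted p = 0.0085 in edgeR), a call that was lost without si-NC replicate 2 (adjusted p = 0.0978). RARA, named after its values were seen, was at 41.6 ± 0.854 and 37.6 ± 2.18 CPM (adjusted p = 0.0454), and was called in 1 of the 6 fits that each left out a sample. TGFB1, the cytokine TGF-β1, fell from 61.5 ± 3.50 to 49.6 ± 3.47 CPM (edgeR, adjusted p = 1.76e-06). TGFB1 was called in 12 of the 15 alternative fits given at the end.

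The other inducers moved in both directions. IL6, an inflammatory cytokine, stood at 11.5, 10.8 and 9.36 CPM with si-NC and 21.7, 19.0 and 19.9 CPM with si-CNN3#1, and rose by 0.94 on the log2 scale (SE 0.08, edgeR, adjusted p = 5.53e-14). TGFBR2, a TGF-β receptor, rose from 93.2 ± 1.01 to 106 ± 2.07 CPM (edgeR, adjusted p = 3.23e-05). Of the hypoxia factors, HIF1A was at 693 ± 23.1 and 704 ± 10.3 CPM (adjusted p = 0.654 in edgeR), and EPAS1 was at 221 ± 1.33 and 207 ± 9.22 CPM (adjusted p = 0.0232), a call kept in 1 of the 6 fits without a sample. SMAD2, SMAD3, SMAD4, NFKB1, RELA, RXRB, TGFBR1 and IL1B were not called, and TNF had at most 2 counts. TGM2 thus fell in samples where RXRA and TGFB1 were lower and IL6 and TGFBR2 higher, and their part in its level was not tested.

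Of 10 further genes that retinoic acid induces, all were tested, 2 were called lower and 1 higher, with a median of -0.07. The log2 fold change was below 0 in 6 and above 0 in 4. RARB, a retinoic acid receptor gene named after its values were seen, was at 0.372 ± 0.199 CPM with si-NC and 0.747 ± 0.0724 CPM with si-CNN3#1. It had at most 15 counts in a sample and a log2 fold change of 1.03, and was not called (adjusted p = 0.0770 in edgeR). RARRES1, a retinoid-responsive membrane protein, fell from 236 ± 6.89 to 195 ± 6.41 CPM (edgeR, adjusted p = 1.80e-10). CYP26B1, which breaks down retinoic acid, fell from 23.4 ± 0.373 to 19.5 ± 0.712 CPM (edgeR, adjusted p = 0.00225). DHRS3, a retinaldehyde reductase, was at 135 ± 2.19 and 128 ± 4.96 CPM and was not called (adjusted p = 0.153). RARRES1 and CYP26B1 were lower in every si-CNN3#1 sample, with smaller log2 fold changes than that of TGM2, at -0.27 and -0.26. The groups did not overlap for DHRS3 either, nor for RARB, which was higher with si-CNN3#1. Of all tested genes, 28.2% did not overlap between the groups.

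**Figure D5:**
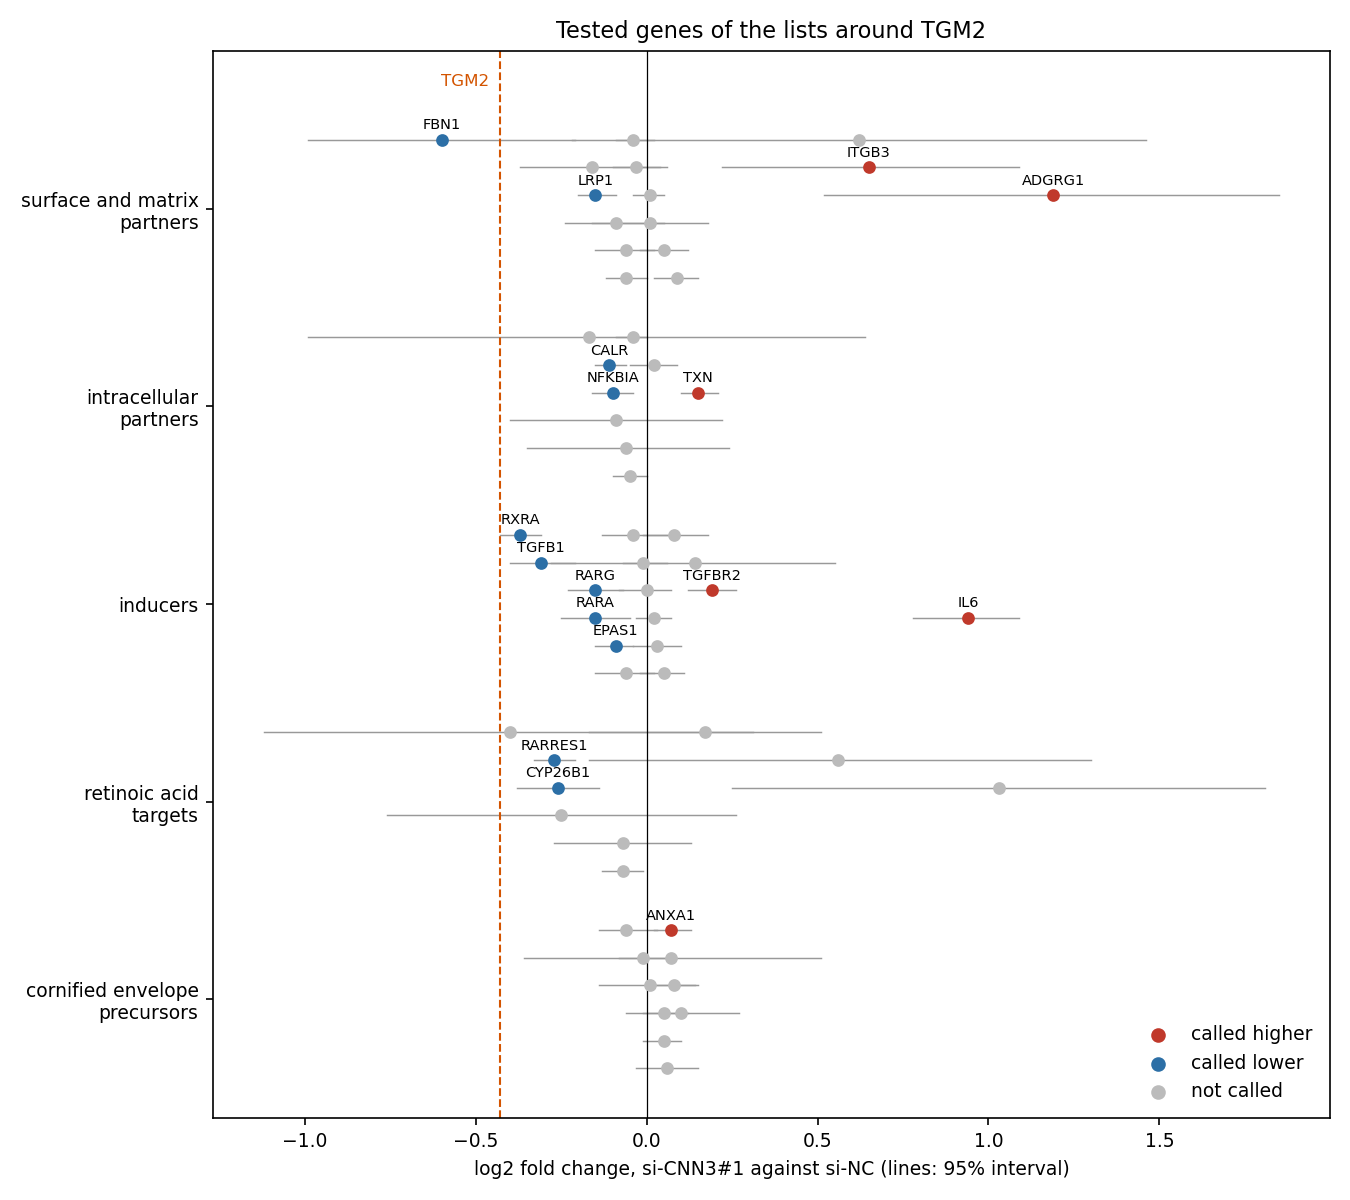
Log2 fold change of si-CNN3#1 against si-NC for tested genes of 5 lists, with 95% intervals; called genes are named, in red where higher and in blue where lower, and the dashed line marks TGM2 at -0.43. RXRA at -0.37 is the called inducer nearest to TGM2, IL6 lies at 0.94, and the cornified envelope genes lie between -0.06 and 0.10.

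Of 18 partners or substrates of TGM2 at the cell surface and in the matrix, 15 were tested, 2 called higher and 2 lower, with a median of -0.03. The 3 most abundant were ITGB1, LRP1 and SDC4. The integrin subunit gene ITGB1 was at 662 ± 2.46 CPM with si-NC and 665 ± 7.12 CPM with si-CNN3#1, and the syndecan SDC4 at 241 ± 2.33 and 235 ± 2.44 CPM, neither of them called. The endocytic receptor LRP1, which clears TGM2 from the surface, fell from 307 ± 6.88 to 277 ± 11.3 CPM (edgeR, adjusted p = 1.10e-04). LRP1 was called in 12 of the 15 alternative fits given at the end. Fibronectin, FN1, was at 10.3 ± 0.194 and 10.4 ± 0.311 CPM and was not called (adjusted p = 0.972).

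The other calls of that list rested on few reads. The integrin gene ITGB3 stood at 1.84, 0.924 and 2.04 CPM with si-NC and 2.55, 1.93 and 2.96 CPM with si-CNN3#1 (adjusted p = 0.0409 in edgeR), and the groups overlapped. Its call was lost without si-NC replicate 2 (adjusted p = 0.399, log2 fold change 0.34 against 0.65), as without si-CNN3#1 replicate 1 or 3. ADGRG1, an adhesion receptor that binds TGM2, was at 0.469 ± 0.189 and 1.10 ± 0.261 CPM (adjusted p = 0.0115) and was not called without si-CNN3#1 replicate 3, si-NC replicate 1 or si-NC replicate 3 (adjusted p up to 0.0983). Fibrillin 1, FBN1, was at 2.45 ± 0.0555 and 1.62 ± 0.149 CPM (adjusted p = 0.0352) and was called in 0 of the 6 fits without a sample (adjusted p 0.0545 to 0.130).

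Of 13 partners inside the cell, 9 were tested, 2 called lower and 1 higher, with a median of -0.06. Calreticulin, CALR, a calcium-binding chaperone, fell from 1115 ± 16.7 to 1037 ± 30.7 CPM (edgeR, adjusted p = 0.00153), and was called in 12 of the 15 alternative fits. NFKBIA, the inhibitor of NF-κB, was at 193 ± 4.47 and 180 ± 10.7 CPM (adjusted p = 0.0268), and this call was lost without si-CNN3#1 replicate 2, si-NC replicate 1 or si-NC replicate 3 (adjusted p up to 0.360). Thioredoxin, TXN, which reduces a disulfide that switches TGM2 off, rose from 267 ± 8.59 to 297 ± 14.7 CPM (edgeR, adjusted p = 1.11e-04). RHOA, a small GTPase, was at 615 ± 7.09 and 596 ± 4.14 CPM, and PDIA3, a disulfide isomerase that oxidizes TGM2, at 515 ± 12.7 and 498 ± 7.73 CPM, neither of them called. The α1-adrenergic receptor genes ADRA1A, ADRA1B and ADRA1D had at most 6 counts in any sample. Some receptors of this family signal through TGM2 as a G protein. The effector PLCD1 had 55 to 75 counts.

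The substrates of the scarce members were mostly scarce as well. Of 30 precursors of the cornified envelope, 14 had 0 counts in all 6 samples, among them IVL, LOR and KRT1, and 10 were tested. ANXA1, a calcium-dependent membrane-binding protein, was called higher at 446 ± 15.5 against 469 ± 5.22 CPM (adjusted p = 0.0498 in edgeR), and this call was kept in 1 of the 6 fits without a sample. The median of the list was 0.05. The desmosomal plakin PPL was at 224 ± 3.37 and 237 ± 10.9 CPM and S100A11, a calcium-binding protein, at 308 ± 7.50 and 318 ± 6.93 CPM, neither of them called. Of 7 proteins that factor XIII acts on or with, 0 were tested. The most counts in any sample on CPB2, SERPINF2 and F2 of that list were 7, 5 and 7.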

How the data were processed

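The authors deposited a table of raw read counts and a table of FPKM per gene, 3 samples per group. The deposited counts are whole numbers, and the deposited FPKM equal count per length and total count, with 1 length per gene. The submitters' processing notes name TopHat2 2.0.9, Bowtie2 2.0.6, HTSeq and DESeq 1.10.1; the genome build and annotation are not given in the sources used here. GENCODE 29 (GRCh38) named 45342 of 48162 identifiers.

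Counts were tested with edgeR 4.0.16 in R 4.3.3 (TMM, filterByExpr, quasi-likelihood, condition only, Benjamini-Hochberg over 15860 genes, threshold 0.05) after a trial on simulated data. Alternatives were other scalings, no filter, a replicate block, each sample left out, DESeq2 1.42.0, and limma 3.58.1 with FPKM on a log2 scale (pseudocount 1 or 0.1, minimum mean FPKM of 1 or none). The study describes the 3 samples of a group as biological replicates from separate assays. Libraries of 1 group differed by more than sampling noise (chi-square over its degrees of freedom, 1.56 to 1.98).

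Members and gene lists were chosen with earlier results of these data known. Named are all family genes, CNN3, in each list the 3 most abundant genes and the 3 largest called rises and falls, and the 5 genes most like TGM2. Markers and genes said to be named after their values were seen are added, as are RPRD1B for its shared bases and members that were not called. Of the listed genes, 1 is not reported here and is left out of the plot of the lists, but stays in the counts.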

Additional observations from a re-analysis of the deposited data

How the results depend on the processing

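TGM2 kept its direction under all 15 alternatives, with a log2 fold change of -0.45 to -0.41, and CNN3 kept its direction as well. These fits reuse the samples on which TGM2 was chosen. Against 2111 calls over all genes and 18 over the 6 lists, separate fits on other sets of genes made fewer: DESeq2 made 1087 and 9 calls, limma on log2(FPKM + 1) 582 and 6, limma on log2(FPKM + 0.1) 478 and 5, and limma on log2(FPKM + 1) with no filter 217 and 1. The causes were not tested. Leaving out 1 sample gave 1551 to 1747 calls over all genes and 12 to 15 over the lists. No result changed sign with a call. Of the 23 genes named by rule that had a call, 16 lost it under at least 1 alternative. The 23 include CNN3 and the 5 genes picked for likeness to TGM2, all of them called in every alternative. Among the called list genes named by rule, only IL6 kept its call throughout. Of the 15 alternatives, LRP1, CALR, TGFB1 and TXN were called in 12. RXRA, TGFBR2, RARRES1 and CYP26B1 were called in 14, and IL6 in all 15. LRP1, CALR and TGFB1 were not called in any of the limma fits. With the replicate block there were 2727 and 20 calls, and TGM2 stayed at -0.43. Samples with the same number deviated together only weakly (correlations 0.01, 0.03 and 0.03), against -0.03 to -0.00 for samples with different numbers. The main fit did not take the numbers to pair the samples, but a weak pairing is not excluded. Depth limits TGM1, TGM3, TGM5 and F13A1, of which at most 37 reads were counted in a sample.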
